A study of Mus musculus with 18 samples.

Results

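Cholesterol and fatty acid synthesis is described here through 32 named mouse genes: enzymes of the sterol pathway, the regulators of that pathway, enzymes that make and remodel fatty acids, and 1 sterol carrier. They were chosen by gene symbol, through the symbols that the deposited comparison tables pair with Ensembl identifiers. By this rule 31 of the 32 were found among 37991 genes, and Hmgcs1 is not analysed here. All 31 passed the filter on low counts and were tested among 11153 genes: 13 enzymes of sterol synthesis, 5 regulators, 12 genes of fatty acid and glycerolipid synthesis, and Stard4, a carrier of sterols between membranes.

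Total RNA was sequenced from 18 libraries of plated, cryopreserved hepatocytes of male CD-1 mice, a commercial preparation of primary liver cells. An siRNA against Ttr, the gene of the thyroxine carrier transthyretin, was combined with REVERSIR oligonucleotides. These are short synthetic strands complementary to an siRNA guide, made to release its target from silencing. The 6 groups of 3 libraries received PBS, the siRNA, a scrambled REVERSIR (the sequence control), a TTR REVERSIR, or the siRNA together with the scrambled or with the TTR REVERSIR. The cells, strain and sex were common to all groups, and the labels give no dose or time. Whether replicates are separate cultures or animals is not stated, so that p-values measure only the spread between these libraries, which may be technical.

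In the liver, sterol and fatty acid genes are driven by the SREBP transcription factors, which are made as membrane proteins of the endoplasmic reticulum. The escort protein SCAP carries them to the Golgi for proteolytic release, and the INSIG proteins hold SCAP back when sterols are plentiful. SREBP-2, the product of Srebf2, acts mainly on sterol genes, and SREBP-1c, from Srebf1, mainly on fatty acid genes.

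Library totals ran from 1755819 to 10145265 counts, and the 3 scrambled REVERSIR libraries were among the shallower ones, with 1755819 to 2896366. Ttr lay at 220 to 254 CPM (counts scaled to a common library size after TMM scaling) in the 6 libraries given the siRNA without the TTR REVERSIR, and at 978 to 1357 CPM in the other 12. PBS replicates 1 and 2 stood apart: mitochondrial ribosomal RNA took 24.1% to 24.3% of their counts and 1.69% to 9.56% of those of the other 16 libraries. Values against PBS are therefore set beside values against PBS replicate 3 alone, from a fit that takes the spread of PBS from the other groups. The summed CPM of 10 hepatocyte markers was 46083 to 59155, with Alb alone at 36758 to 49585. Of the 8 Kupffer cell and macrophage markers (349 to 450 CPM in sum) Cd68 and Cd14 made up nearly all. Clec4f was at 2.65 to 6.45 CPM. Csf1r, Vsig4, Lyz2, Marco and Adgre1 reached at most 2.73, 1.98, 1.80, 1.21 and 0.683 CPM. The 4 adipocyte markers summed to 10.1 to 22.0 CPM, with Adipoq and Lep at 0 in every library. Sums over 7 endothelial, 7 stellate cell and 5 cholangiocyte markers stayed at or below 66.4, 40.6 and 16.4 CPM. The range of every list overlapped between PBS and each treated group, except that cholangiocyte markers were at 13.5 to 16.4 CPM with PBS, 9.84 to 12.99 with the scrambled REVERSIR and 10.9 to 13.3 with the TTR REVERSIR. The part of these cells in any result was not tested. Fewer cells of a type and less RNA per cell cannot be told apart in such libraries.

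The start-site windows of Insig1, Mvk and Fads2 are shown first, because each had the smallest unadjusted p against PBS in its role, as a regulator, a sterol enzyme and a fatty acid enzyme. RefSeq windows (build GRCm38.p6, 250 bases before to 50 after the start) were at hand for 26 of the 32 named genes. The stretches below are the 250 bases before the start, read 5′ to 3′ on the strand of the gene, and capitals mark the CCAAT box (CCAAT) and the E-box (CACGTG) on either strand. They lie at chr5:28071162-28071411 on the plus strand for Insig1, at chr5:114444019-114444268 on the plus strand for Mvk, and at chr19:10101504-10101753 on the minus strand for Fads2.
Insig1: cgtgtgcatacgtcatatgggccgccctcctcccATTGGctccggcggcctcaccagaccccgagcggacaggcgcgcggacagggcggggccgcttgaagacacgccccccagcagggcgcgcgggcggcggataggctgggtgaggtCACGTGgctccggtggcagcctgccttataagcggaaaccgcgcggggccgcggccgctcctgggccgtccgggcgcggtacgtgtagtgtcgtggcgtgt
Mvk: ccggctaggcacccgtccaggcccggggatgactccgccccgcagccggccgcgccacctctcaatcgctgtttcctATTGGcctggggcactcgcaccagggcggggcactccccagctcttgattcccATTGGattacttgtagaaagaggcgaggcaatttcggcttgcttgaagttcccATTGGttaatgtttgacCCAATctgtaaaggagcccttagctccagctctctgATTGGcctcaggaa
Fads2: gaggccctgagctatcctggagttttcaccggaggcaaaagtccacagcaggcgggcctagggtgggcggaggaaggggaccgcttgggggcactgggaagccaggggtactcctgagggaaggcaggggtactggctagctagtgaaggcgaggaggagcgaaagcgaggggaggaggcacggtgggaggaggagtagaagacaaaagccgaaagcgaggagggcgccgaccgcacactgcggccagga
The Insig1 stretch holds 1 CCAAT box and 1 E-box, the Mvk stretch 5 CCAAT boxes, and the Fads2 stretch neither motif.

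The CCAAT box is bound by NF-Y, a common partner of SREBPs on sterol promoters. Over the whole windows, a CCAAT box was present in 22 of the 26 genes (84.6%), against 41.1% of the 27025 genes that have a window. A GC box (GGGCGG), the site of Sp1, was present in 20 (76.9%), against 38.2% of those genes. An E-box, which SREBPs can bind, was present in 5 (19.2%), against 8.09%: Dhcr7, Hsd17b7, Scap, Insig1 and Elovl5. The sterol regulatory element written as TCACNCCAC was found in 1 gene, Hmgcs1 (3.85%, against 1.44%). All motifs were searched on both strands, GC content was not matched, and a match in letters is a description of the window only.

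In the build of the files, NCBIM37, Insig1 (ENSMUSG00000045294) lies at chr5:28397952-28405201, Mvk (ENSMUSG00000041939) at chr5:114894278-114910600, Fads2 (ENSMUSG00000024665) at chr19:10138654-10175993 and Me1 (ENSMUSG00000032418) at chr9:86474970-86589947. Per length of transcript the genes spanned a wide range in these cells. Scd1, the stearoyl-CoA desaturase that makes oleate, stood highest with a mean of 573.5 CPM per kb of its longest coding transcript over the 18 libraries. Fdps, which makes farnesyl diphosphate, followed with 206 CPM per kb and Insig2 with 117. Sqle (squalene epoxidase), Fads1 and Fads2 (the desaturases of polyunsaturated fatty acids) lay between 66.4 and 80.0 CPM per kb. At the low end were Elovl6, an elongase of long-chain fatty acids, with 2.65 and Mvd, the decarboxylase of the mevalonate pathway, with 2.74. The regulators Srebf1 and Srebf2 were at 9.97 and 9.10 CPM per kb, and Fasn, the fatty acid synthase, at 11.4. For 7 genes the annotation has an exon of another gene on the opposite strand over part of an exon. They are Scap (985 bases shared with 5830462I19Rik), Fdft1 (769 with Ctsb), Acss2, Lss, Srebf1, Me1 and Acaca. Since no source used here gives the strand of counting, reads of these partners cannot be told apart.

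**Figure D1:**
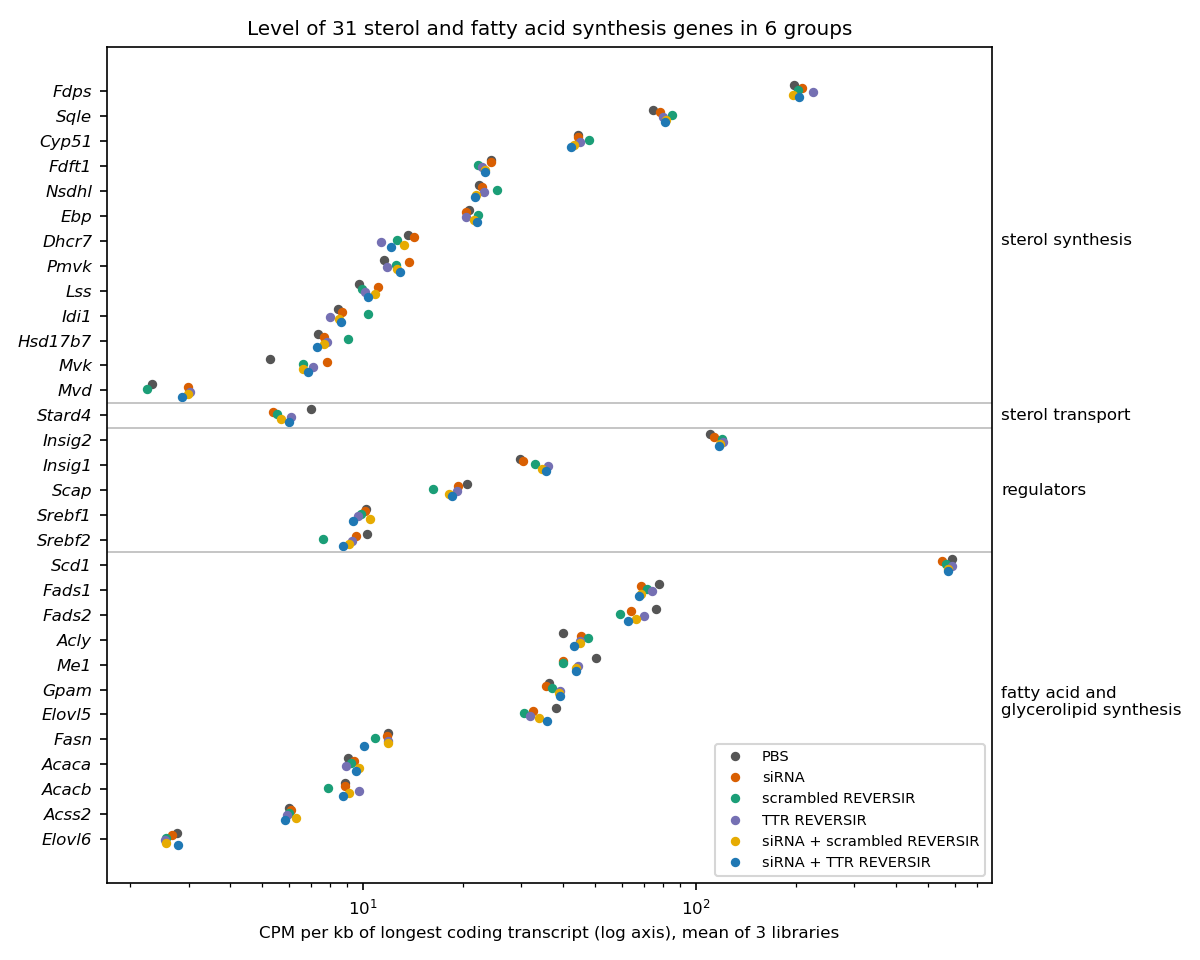
Level of the 31 genes in CPM per kb of the longest coding transcript (log axis), 1 point per group as the mean of 3 libraries, ordered within roles. Scd1 stands highest at a mean of 573.5 and Elovl6 lowest at 2.65, and the 6 groups of each gene lie close together beside the distance between genes.

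No gene of the 31 passed an adjusted p of 0.05 in any of the 11 comparisons of 2 groups, in the interaction of the siRNA with the REVERSIR sequence, or in the tests of any difference among all 6 groups and among the 5 treated ones, by edgeR's quasi-likelihood test with Benjamini-Hochberg adjustment over the 11153 genes. The share of all genes called against PBS was 2.62% for the siRNA, 0.421% for the scrambled REVERSIR, 0.699% for the TTR REVERSIR, 0.61% for the siRNA with the scrambled REVERSIR and 0.789% for the siRNA with the TTR REVERSIR. At shares of this size fewer than 1 of 31 genes would be called at the background rate, so the counts of 0 are near the background. DESeq2 on the same counts called 2, 1, 1, 0 and 3 of the genes in these 5 comparisons, with 6, 5, 12, 10 and 10 of the 31 left without an adjusted p. Without PBS replicate 3, the PBS library that resembles the treated ones in mitochondrial ribosomal RNA, the counts by edgeR were 7, 6, 3, 4 and 4. Calls over all genes moved too, from 292, 47, 78, 68 and 88 to 421, 188, 173, 201 and 242 by DESeq2, and to 1365, 749, 978, 1142 and 1151 without PBS replicate 3.

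At an unadjusted p under 0.05 the counts against PBS were 7, 9, 7, 7 and 7 of 31 in the same order of groups. Background shares of all genes were 20.1%, 14.7%, 16.4%, 17.7% and 17.7%. In percent, the 31 genes stood at 22.6 in every comparison but that of the scrambled REVERSIR, where they stood at 29. Groups that did not overlap with PBS were counted for 7, 8, 5, 5 and 5 genes, beside 19.4%, 14.5%, 12%, 19.2% and 16% of all genes. In each of these 5 comparisons 14 to 16 of the 31 log2 fold changes were above 0, with medians between −0.02 and 0.01, near those of all genes. Of the 13 sterol enzymes 11, 10, 10, 8 and 8 were above 0 in the order of groups used here, with medians of 0.07, 0.12, 0.06, 0.05 and 0.05. Of the 12 fatty acid genes 3, 4, 4, 5 and 4 were above 0, with medians of −0.04, −0.12, −0.01, −0.02 and −0.04. Against PBS replicate 3 alone these counts were 10, 7, 7, 7 and 5 sterol enzymes and 6, 5, 8, 5 and 5 fatty acid genes. The difference between the roles was not tested.

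The differences were small and their intervals narrow. Over the 341 pairs of a gene and a comparison of 2 groups, log2 fold changes ran from −0.42 to 0.58, with a median size of 0.077. In 321 of these pairs the 95% interval lay within a 1.5-fold change in either direction, and in all 341 it lay within a 2-fold change. Of all genes tested, 60.5% to 81.7% had an interval within a 1.5-fold change, depending on the comparison of 2 groups. The counts of pairs are from the fit with all 3 PBS libraries and do not cover the fit against PBS replicate 3 alone. The 20 pairs with wider intervals were 7 of Mvd, 5 of Mvk, 4 of Stard4, 2 of Pmvk, and 1 each of Idi1 and Srebf2.

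**Figure D2:**
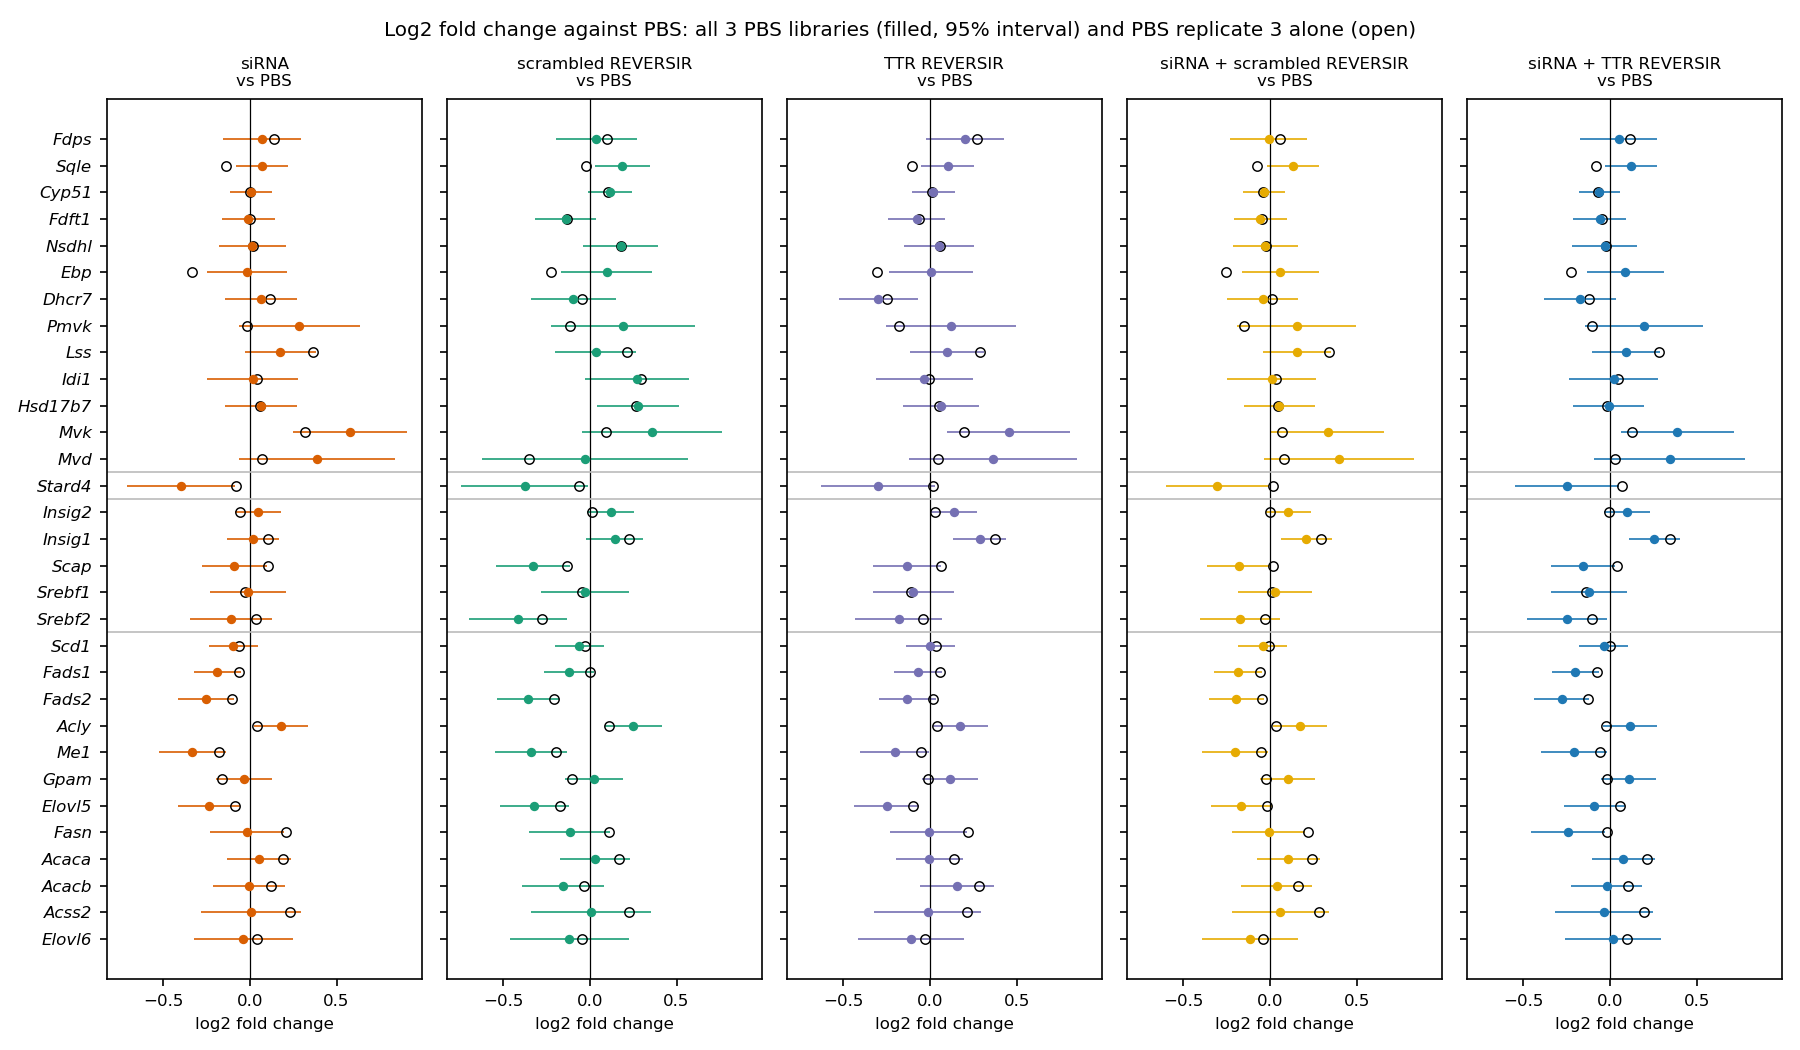
Log2 fold change of each gene against PBS in the 5 treated groups: filled points with 95% intervals are from all 3 PBS libraries, and open circles are against PBS replicate 3 alone. The estimates lie between −0.42 and 0.58, and for Fads1, Fads2, Elovl5, Me1 and Mvk the open circles lie nearer 0 than the filled points in all 5 panels.

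Among the regulators, Insig1 had the smallest p in the test of any difference among the 6 groups. Its adjusted p of 0.119 was the smallest of the 31 genes in that test, where 0.224% of all genes passed. The distance between its highest and lowest group was 0.27 on the log2 scale, less than for Srebf2 (0.43) and Scap (0.34). Among the 5 treated groups the adjusted p of Insig1 was 0.802, with 0.0269% of all genes called. INSIG1 holds SCAP in the endoplasmic reticulum, and its gene is itself switched on by SREBPs. It lay at 81.5, 80.4 and 74.6 CPM with PBS, at 84.9, 80.8 and 74.9 with the siRNA, and at 84.0, 88.9 and 88.8 with the scrambled REVERSIR. With the TTR REVERSIR it lay at 99.8, 89.1 and 97.5 CPM, with the siRNA and the scrambled REVERSIR at 86.5, 90.0 and 98.1, and with the siRNA and the TTR REVERSIR at 95.1, 90.6 and 96.8. All 4 groups given a REVERSIR lay above PBS in every library, while the siRNA group overlapped PBS. Of the 12 libraries with a REVERSIR, only scrambled REVERSIR replicate 1 (84.0 CPM) lay below the highest library without one, siRNA replicate 1 (84.9 CPM).

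The log2 fold change of Insig1 against PBS was 0.29 ± 0.074 (SE) for the TTR REVERSIR, with an adjusted p of 0.0657. It was 0.25 ± 0.071 for the siRNA with the TTR REVERSIR (adjusted p = 0.0671) and 0.21 ± 0.071 for the siRNA with the scrambled REVERSIR (adjusted p = 0.127). For the scrambled REVERSIR it was 0.14 ± 0.080 (adjusted p = 0.42), and for the siRNA 0.02 ± 0.073 (adjusted p = 0.997). These comparisons share their 3 PBS libraries. Against PBS replicate 3 alone the values were larger, 0.38, 0.34, 0.29, 0.23 and 0.10 in the same order, with adjusted p of 0.97 to 1. Without TTR REVERSIR replicate 2, the lowest of its group, Insig1 passed the threshold for the TTR REVERSIR (adjusted p = 0.0259). Calls over all genes in that comparison rose from 78 to 375 without that library.

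The 2 groups given both the siRNA and a REVERSIR were also compared with the siRNA group, using the same REVERSIR libraries as above. Insig1 was higher by 0.24 ± 0.069 on the log2 scale with the siRNA and the TTR REVERSIR than with the siRNA alone (adjusted p = 0.643, with 0.00897% of all genes called), and by 0.19 ± 0.069 with the siRNA and the scrambled REVERSIR (adjusted p = 1, with 0% of all genes called). In both comparisons the groups did not overlap. A contrast of the 4 groups with a REVERSIR against the 2 without, chosen after these values were seen, gave 0.21 ± 0.045 for Insig1 (adjusted p = 0.159, with 0.0359% of all genes called). At an unadjusted p under 0.05 the contrast held 8 of the 31 genes, beside 11% of all genes, and the REVERSIR groups overlapped the others for every gene. In that contrast Insig1 was 0.26 without PBS replicates 1 and 2 (adjusted p = 0.896).

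The other regulators varied less evenly. Insig2, the second retention protein and the most abundant of the 5 per length, lay at 292, 279 and 321 CPM with PBS and between 293 and 347 CPM in the 15 treated libraries. PBS replicates 1 and 2 were below all others for this gene, and its log2 fold changes of 0.05 to 0.14 became −0.06 to 0.03 against PBS replicate 3. Srebf2 lay at 50.4, 57.0 and 46.9 CPM with PBS and at 40.5, 41.0 and 32.6 with the scrambled REVERSIR, without overlap. That log2 fold change was −0.42 ± 0.14 (adjusted p = 0.143), the lowest of all 341, and −0.28 against PBS replicate 3.

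Scap, the escort of the SREBPs, lay at 89.3, 95.3 and 76.4 CPM with PBS and at 79.9, 65.6 and 61.3 with the scrambled REVERSIR, groups that overlapped. Its log2 fold change was −0.33 ± 0.10 (adjusted p = 0.13) and −0.13 against PBS replicate 3. Srebf1 showed the smallest differences of the regulators with the siRNA alone (−0.01 ± 0.11) and with the scrambled REVERSIR alone (−0.03 ± 0.12). Against PBS replicate 3 these were −0.03 and −0.04. The 18 values of Srebf1 lay between 33.7 and 51.9 CPM, both extremes being libraries of the scrambled REVERSIR alone.

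**Figure D3:**
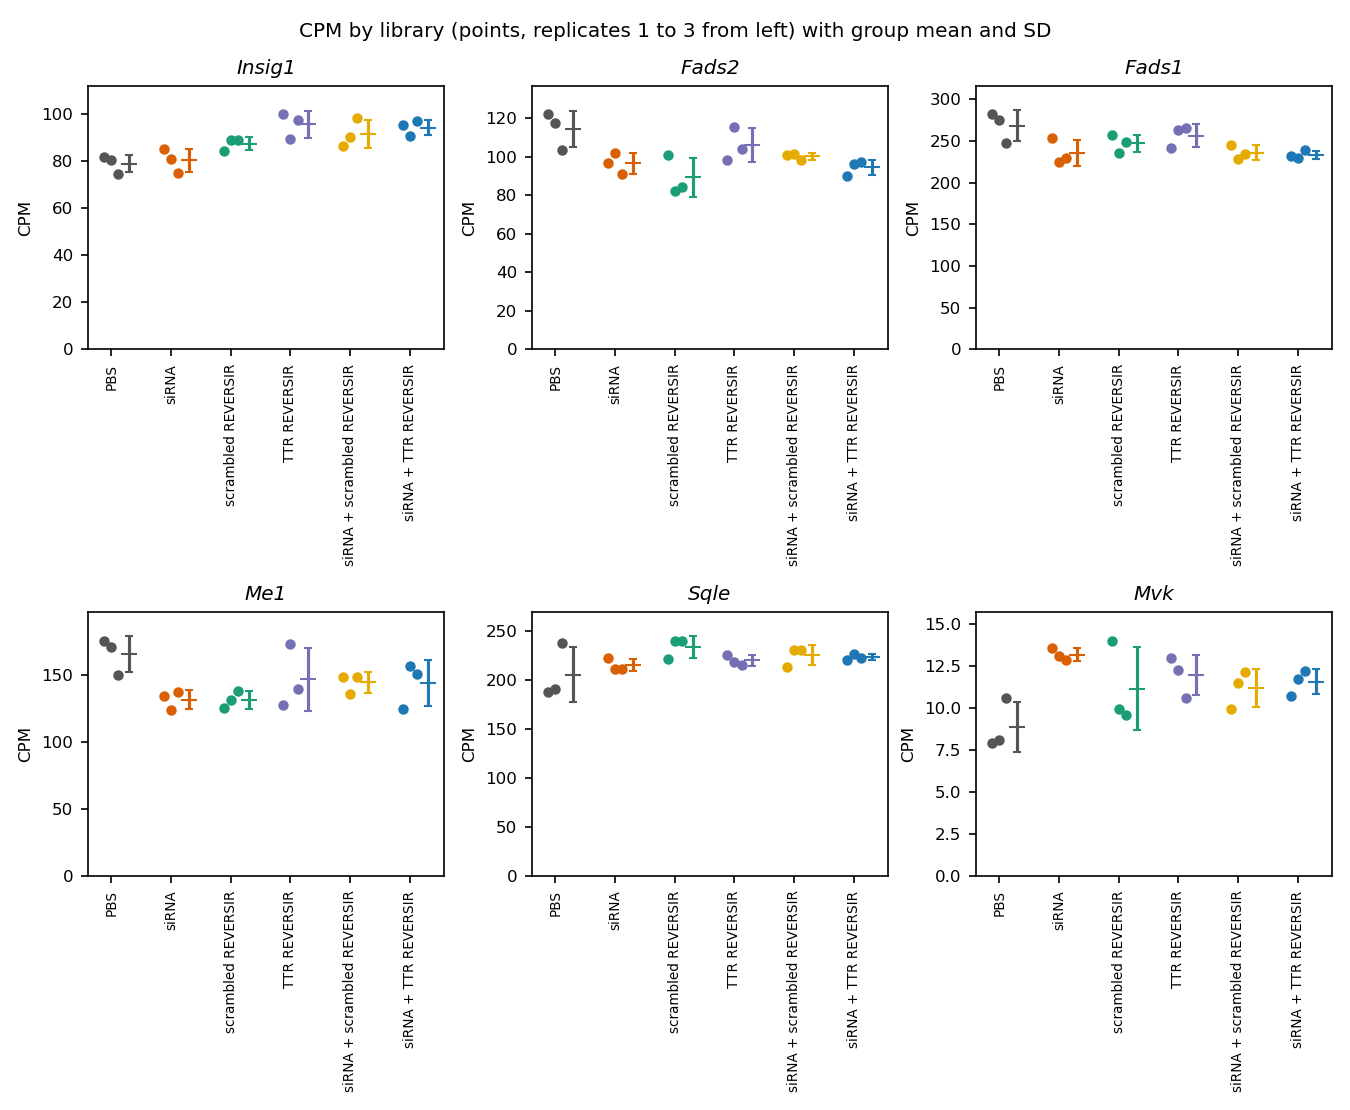
CPM in each library for Insig1, Fads2, Fads1, Me1, Sqle and Mvk: points are replicates 1 to 3 from the left in each group, and the bar beside them is the group mean with its SD (n = 3). Insig1 is higher in the 4 REVERSIR groups than with PBS, and for Fads2, Fads1, Sqle and Mvk PBS replicates 1 and 2 lie apart from the other 16 libraries.

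In the sterol branch, Mvk came closest to the threshold. It encodes mevalonate kinase and is a low gene here, with 17 to 110 counts per library. PBS gave 7.93, 8.11 and 10.6 CPM, and the siRNA 13.6, 13.1 and 12.9 CPM, without overlap. The log2 fold change for the siRNA against PBS was 0.58 ± 0.16, with an adjusted p of 0.0523, the smallest of the 31 genes in any comparison. The other 4 treated groups gave 0.33 to 0.45 on the log2 scale against PBS, with adjusted p of 0.188 to 0.403. PBS replicates 1 and 2 were the lowest of the 18 libraries for Mvk, and against PBS replicate 3 the siRNA value was 0.32 (adjusted p = 0.961) and the others 0.07 to 0.20.

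Sqle, the first oxygenation step after squalene, showed the same split within PBS. It lay at 188, 191 and 238 CPM with PBS and at 221, 240 and 240 CPM with the scrambled REVERSIR. The log2 fold change of 0.19 ± 0.076 (adjusted p = 0.251) became −0.02 against PBS replicate 3, so that its sign rests on PBS replicates 1 and 2. Dhcr7, which makes cholesterol in the last step of one branch, did not share that split. It lay at 39.9, 38.3 and 37.3 CPM with PBS and at 27.6, 33.2 and 35.2 CPM with the TTR REVERSIR, without overlap. Its log2 fold change there was −0.30 ± 0.11 (adjusted p = 0.18), and −0.24 against PBS replicate 3.

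Dhcr7 was also lower with the siRNA and the TTR REVERSIR (31.4, 34.9 and 36.7 CPM) than with the siRNA alone (37.5, 40.4 and 42.5 CPM), without overlap. That log2 fold change was −0.24 ± 0.096 (adjusted p = 0.784). Cyp51, the sterol demethylase, was the steadiest sterol gene, at 161 to 193 CPM in all 18 libraries and with a within-group SD of 0.048 on the log2 scale. Its highest group was the scrambled REVERSIR with 193, 183 and 189.5 CPM, above PBS at 173, 173 and 175 CPM without overlap, a log2 fold change of 0.12 ± 0.062 (adjusted p = 0.383) that was 0.11 against PBS replicate 3. Hsd17b7, another enzyme of the late pathway, lay at 42.8, 36.9 and 45.0 CPM in that group and at 33.7, 33.8 and 34.3 with PBS, a log2 fold change of 0.28 ± 0.11 (adjusted p = 0.257) that was 0.27 against PBS replicate 3.

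The remaining sterol enzymes gave no unadjusted p under 0.05 against the 3 PBS libraries. Fdps varied more within groups than Sqle, Insig2, Fads1, Gpam and Scd1, the other genes of high CPM: it lay at 303, 216 and 316 CPM with the TTR REVERSIR and at 255, 243 and 234 with PBS. Its log2 fold changes against PBS replicate 3 were 0.06 to 0.27. Lss (lanosterol synthase), Idi1, Fdft1 (squalene synthase), Pmvk, Nsdhl and Ebp had log2 fold changes of −0.14 to 0.29 against PBS, with adjusted p of 0.317 or more. Against PBS replicate 3 alone Lss was at 0.22 to 0.36 and Ebp, a sterol isomerase, at −0.33 to −0.22. Their unadjusted p was under 0.05 for Lss with the siRNA (0.36) and with the siRNA and the scrambled REVERSIR (0.34), and for Ebp with the siRNA (−0.33), with the TTR REVERSIR (−0.31) and with the siRNA and the scrambled REVERSIR (−0.26), at adjusted p of 0.961 to 1. Idi1, Fdft1, Pmvk and Nsdhl were at −0.18 to 0.29 against that library. Mvd lay between 3.17 and 5.94 CPM, from 7 to 59 counts per library, and its intervals passed a 1.5-fold change in 7 of 11 comparisons. Its log2 fold changes were −0.35 to 0.08 against PBS replicate 3.

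Of the fatty acid genes, the desaturase Fads2 and the malic enzyme Me1 were lower than PBS in most treated groups after TMM scaling. Me1 is a source of NADPH for synthesis. Library totals alone moved the median of all genes against PBS to between 0.290 and 0.331. With that shift the sign turned for Fads2 in 3 of 4 and for Me1 in 3 of 5 groups recomputed. The turned values stayed below that median of all genes. Fads2 lay at 122, 117 and 104 CPM with PBS. It was at 96.7, 102 and 91.1 CPM with the siRNA, at 101, 82.4 and 84.3 with the scrambled REVERSIR, and at 98.2, 116 and 104 with the TTR REVERSIR. With the siRNA it was at 101, 101 and 98.1 CPM beside the scrambled REVERSIR, and at 90.0, 96.1 and 97.3 beside the TTR REVERSIR. Of the 5 treated groups, only the TTR REVERSIR overlapped PBS. PBS replicates 1 and 2 were above all the other libraries.

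The log2 fold changes of Fads2 were −0.36 ± 0.087 for the scrambled REVERSIR (adjusted p = 0.065), −0.28 ± 0.077 for the siRNA with the TTR REVERSIR (adjusted p = 0.0666) and −0.25 ± 0.078 for the siRNA (adjusted p = 0.0788). Against PBS replicate 3 alone they were −0.21, −0.13 and −0.10, with adjusted p of 0.973 to 1. The siRNA with the scrambled REVERSIR gave −0.19 ± 0.077 (adjusted p = 0.189) and −0.04 against PBS replicate 3. Without scrambled REVERSIR replicate 1 the value for the scrambled REVERSIR passed the threshold (adjusted p = 0.0336). Calls over all genes in that comparison were then 43, in place of 47. Fads2 had the smallest p of the 31 genes in the interaction of the siRNA with the REVERSIR sequence, at −0.31 ± 0.12 on the log2 scale (adjusted p = 0.889, with 0.00897% of all genes called).

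Me1 lay at 175, 171 and 150 CPM with PBS, at 134, 124 and 137 with the siRNA and at 125, 131 and 138 with the scrambled REVERSIR. Neither of these groups overlapped PBS. The log2 fold changes were −0.33 ± 0.094 (adjusted p = 0.0551) and −0.34 ± 0.10 (adjusted p = 0.111), and −0.18 and −0.19 against PBS replicate 3. In the other 3 groups they were −0.21 to −0.20, and −0.06 to −0.05 against PBS replicate 3, and the groups with the TTR REVERSIR reached into the PBS range, up to 173 CPM in TTR REVERSIR replicate 2.

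Fads1, the desaturase whose gene neighbours Fads2, and the elongase Elovl5 also had PBS replicates 1 and 2 above the other 16 libraries. Fads1 lay at 282, 276 and 247 CPM with PBS and at 232, 230 and 239 with the siRNA and the TTR REVERSIR, a log2 fold change of −0.20 ± 0.066 (adjusted p = 0.113) that was −0.08 against PBS replicate 3. Elovl5 lay at 112, 110 and 96.3 CPM with PBS and at 90.8, 86.8 and 76.5 with the scrambled REVERSIR, a log2 fold change of −0.32 ± 0.097 (adjusted p = 0.116) that was −0.17 against PBS replicate 3. Acly, which makes cytosolic acetyl-CoA, went the other way: PBS gave 173, 162 and 195 CPM and the scrambled REVERSIR 219, 195 and 218. Its log2 fold change there was 0.25 ± 0.079 (adjusted p = 0.134) and 0.11 against PBS replicate 3.

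Acaca, the acetyl-CoA carboxylase of the cytosol, which takes the committed step of fatty acid synthesis, had log2 fold changes between 0.00 and 0.11 against PBS, and between 0.14 and 0.24 against PBS replicate 3. Fasn lay at 126, 119 and 98.3 CPM with PBS and at 86.6, 91.9 and 112 with the siRNA and the TTR REVERSIR, an overlap, with a log2 fold change of −0.24 ± 0.10 (adjusted p = 0.223) that was −0.02 against PBS replicate 3. In the other 4 groups Fasn was at 0.11 to 0.22 against that library. Scd1 lay at 2867, 2886 and 2792 CPM with PBS and at 2757, 2758 and 2483 with the siRNA, a log2 fold change of −0.10 ± 0.069 (adjusted p = 0.46) that was −0.06 against PBS replicate 3. Its 18 values spanned only 2483 to 2941 CPM. Acacb, Gpam (the first acyltransferase of glycerolipid synthesis), Acss2 and Elovl6 had no unadjusted p under 0.05 against the 3 PBS libraries or against replicate 3, where they lay between −0.16 and 0.28.

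Stard4, which moves sterols between membranes, lay at 43.0, 35.1 and 29.0 CPM with PBS and at 29.6, 24.5 and 28.0 with the siRNA, groups that overlapped. The log2 fold change was −0.40 ± 0.15 (adjusted p = 0.139), and −0.08 against PBS replicate 3. The spread within its groups was the widest of the 31 genes after Pmvk.

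PBS replicates 1 and 2 lay together outside the range of the other 16 libraries for 7 of the 31 genes (22.6%), and for 13.4% of all genes tested. Elovl5, Fads1 and Fads2 were above that range, and Sqle, Mvk, Insig2 and Acly below it. Against PBS replicate 3 alone no gene of the 31 passed the threshold, and 2, 0, 2, 3 and 1 had an unadjusted p under 0.05 for the 5 treated groups in the order above, beside 4.9%, 4.5%, 4.94%, 4.27% and 4.08% of all genes. Between 20 and 25 of the 31 log2 fold changes kept their sign. The share of mitochondrial ribosomal RNA moves with these libraries, and its part in the results was not tested. With its genes left out of the counts, no gene of the 31 was called in any comparison.

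**Figure D4:**
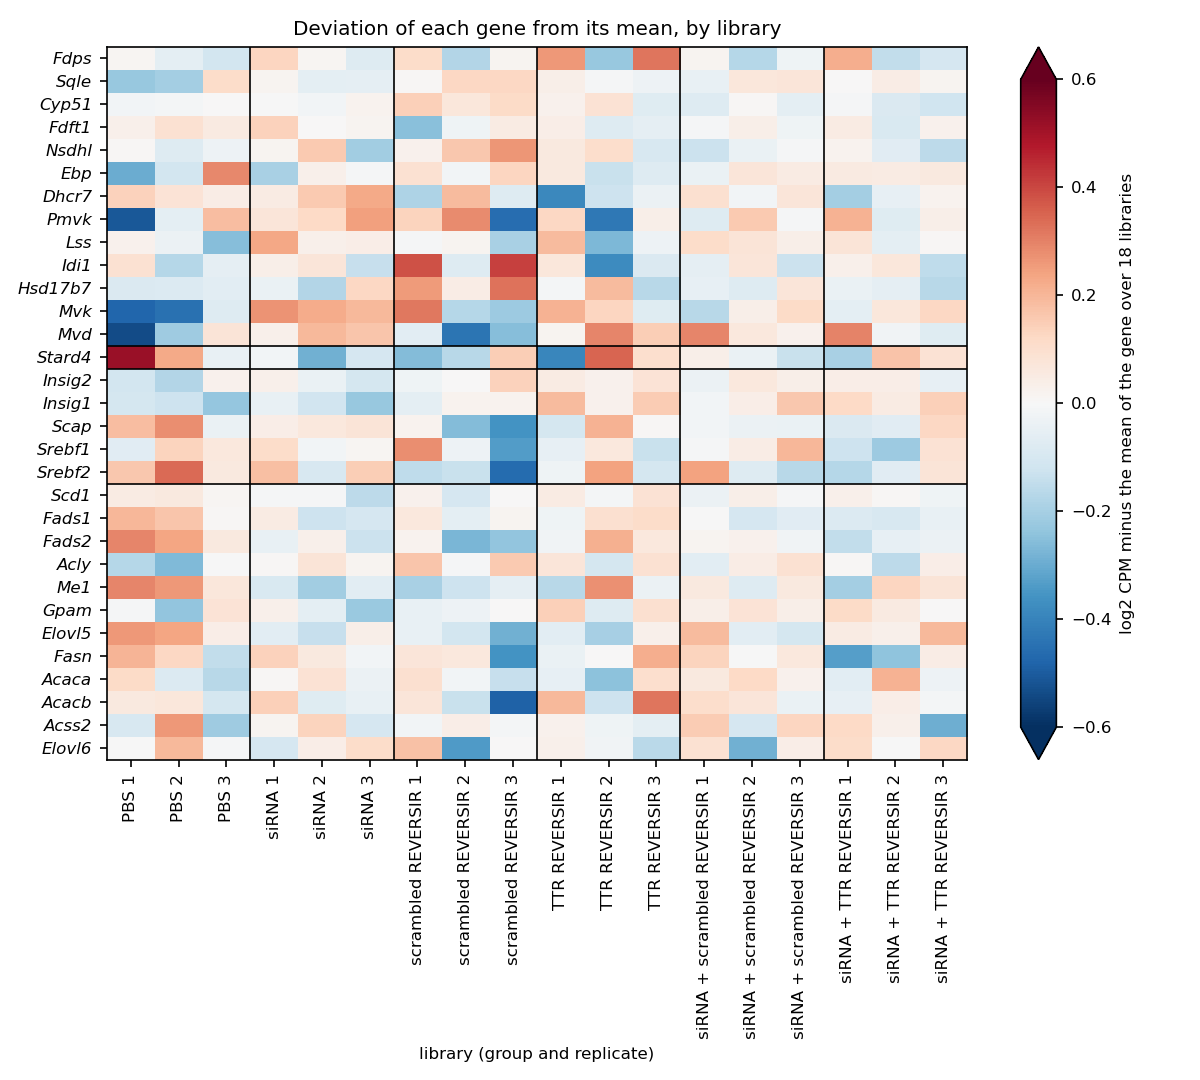
Log2 CPM of each of the 31 genes in each of the 18 libraries, minus the mean of the gene over all libraries (colour scale from −0.6 to 0.6). The first 2 PBS columns stand apart for genes such as Mvk, Fads2 and Sqle, and the Insig1 line is lower in the 6 libraries without a REVERSIR than in most of the others.

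Comparisons that do not use PBS also called none of the 31 genes. The share of all genes called was 0.00897% for the siRNA with the TTR REVERSIR against the siRNA with the scrambled REVERSIR, 0.0179% for the TTR REVERSIR against the scrambled REVERSIR, 0.0179% for the siRNA with the scrambled REVERSIR against the scrambled REVERSIR, and 0% for the siRNA with the TTR REVERSIR against the TTR REVERSIR. At an unadjusted p under 0.05 they held 1, 3, 3 and 1 of the 31 genes, beside 2.17%, 7.33%, 6.22% and 4.44% of all genes. Against the siRNA the counts were 3 for the siRNA with the TTR REVERSIR and 1 for the siRNA with the scrambled REVERSIR, beside 5.98% and 3.72% of all genes. The interaction held 3 (background 5.39%), the test among the 6 groups 7 (13.6%) and the test among the 5 treated groups 2 (5.16%). The smallest p in these 4 comparisons belonged to Fasn, Acacb, Cyp51 and Fasn. Fasn was lower with the siRNA and the TTR REVERSIR than with the siRNA and the scrambled REVERSIR by −0.24 ± 0.099 on the log2 scale (adjusted p = 1). Acacb, the mitochondrial acetyl-CoA carboxylase, was higher with the TTR REVERSIR than with the scrambled one by 0.31 ± 0.11 (adjusted p = 0.551).

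The authors' deposited tables of comparisons with PBS held Me1, Fads2 and Insig1 at an adjusted p under 0.05. Log2 fold changes in those tables are from another fit and can differ in size from those above. For Mvk with the siRNA the authors' value is 0.31, beside 0.58 by edgeR. The authors' deposited table for the siRNA held Me1 (log2 fold change −0.27, adjusted p 0.0241) and Fads2 (−0.22, 0.0408). For the scrambled REVERSIR the authors' deposited table held Fads2 (−0.30, 0.0144) and Me1 (−0.27, 0.045), and for the TTR REVERSIR it held Insig1 (0.25, 0.0357). For the siRNA with the TTR REVERSIR the authors' deposited table held Fads2 (−0.24, 0.0327) and Insig1 (0.22, 0.0481). For the siRNA with the scrambled REVERSIR it held none of the 19 genes that have an adjusted p there. The share of all genes with an adjusted p that passed in the authors' deposited tables was 8.37%, 3.88%, 2.65%, 3.68% and 6.89% in the order of these sentences. Of the 31 genes, 25, 25, 26, 25 and 19 have an adjusted p in the authors' deposited tables, in the same order, and the rest could not pass. Mvk, Mvd, Pmvk, Acss2 and Elovl6 have no adjusted p in any of the authors' deposited tables.

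Genes next to these in the pathway gave a similar picture. Of 11 further sterol synthesis genes 10 were tested and none was called in any comparison. The same held for the 6 tested genes of 7 in SREBP processing and degradation. Of 17 tested genes of 18 in lipid synthesis, 1 was called, beside 2.62% of all genes in the same comparison: Agpat2, an acyltransferase of phosphatidic acid synthesis, with a log2 fold change of 0.40 ± 0.10 for the siRNA against PBS (adjusted p = 0.04). It lay at 30.5, 28.8 and 38.3 CPM with PBS and at 44.4, 44.8 and 39.8 with the siRNA, and against PBS replicate 3 its log2 fold change was 0.16 (adjusted p = 0.965). Of 9 tested genes of 12 in sterol export, storage and LXR targets, 1 was called: Nr1h3, which encodes the sterol sensor LXR alpha, with 0.52 ± 0.13 in the same comparison (adjusted p = 0.0308). It lay at 21.2, 23.0 and 25.7 CPM with PBS and at 31.8, 38.7 and 30.1 with the siRNA, and against PBS replicate 3 its log2 fold change was 0.38 (adjusted p = 0.961). That comparison held 1 call over all genes against PBS replicate 3, in place of 292. Median log2 fold changes of the 4 lists for the siRNA against PBS were 0.08, 0.06, 0.06 and 0.07 in the order sterol, processing, lipid and export, beside 0.00 for all genes. For the siRNA with the TTR REVERSIR against PBS they were 0.04, −0.05, −0.08 and −0.07, so the medians were not above 0 in every treated group.

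The median SD of the 31 genes within groups was 0.132 on the log2 scale, against 0.148 for the 9257 genes in the same range of level, and the median distance between the highest and lowest group was 0.241, against 0.255. After removal of group means, the median correlation over the 465 pairs of genes was −0.0081 across the 18 libraries, a description only, since the values share library and depth. It was 0.12 over the pairs of the 12 fatty acid genes, and −0.00018 over pairs of the 9257 genes in the same range of level. Of the 465 pairs 34 were over 0.5, and the share over 0.5 among the 9257 genes was not computed. Single pairs reached r = 0.858 (Me1 with Stard4) and 0.849 (Scap with Fads2) at the top and −0.814 (Pmvk with Stard4) at the bottom. The summed level of the 30 genes other than Scd1 was 2867 to 2976 CPM as a group mean, with SDs of 14.1 to 92.0 CPM (n = 3).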

How the data were processed

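Total RNA of 18 libraries was analysed from the raw read counts per Ensembl gene that the authors deposited, 1 table per library. Per the submitters' processing notes, STAR was the aligner, NCBIM37 the mouse build and DESeq2 the later tool. No source used here gives their versions, the counting tool or its strand. The authors also deposited 5 DESeq2 tables against PBS that hold a mean signal over libraries, log2 fold changes and their standard errors, the Wald score, p-values and adjusted p-values. Symbols came from those tables, and positions and transcript lengths from the GENCODE vM1 annotation of NCBIM37.

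Genes were kept by filterByExpr of edgeR 4.0.16 (R 4.3.3) by group, scaled by TMM and fitted over all 18 libraries with the group as the only term, leaving 12 residual degrees of freedom. Quasi-likelihood tests were adjusted by Benjamini-Hochberg over 11153 genes, with 0.05 as the threshold. Standard errors and 95% intervals came from the F statistic. Log2 CPM used a prior count of 2. The tests were 11 comparisons of 2 groups, the interaction and 2 tests of any difference. The contrast of groups with and without a REVERSIR was added after values were seen. Alternatives were DESeq2 1.42.0, its size factors, library totals, no filter, mitochondrial ribosomal RNA left out, a replicate block, the compared groups alone, and libraries left out.

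Depth was 1755819 to 10145265 counts per library, so that 1 count was worth 0.100 to 0.562 CPM. Intervals cover the spread between these libraries and counting error. Groups and replicate numbers follow the sample titles. The members, lists and rule for naming genes (all members by role, with values per library for those with the smallest p) were chosen with earlier results of these data known. The scripts were tested on simulated counts, whose spread followed the trend over all genes. For the siRNA against PBS, 18% of 50 genes changed 1.25-fold were recovered. The shares were 64% at 1.5-fold, 84% at 2-fold and 100% at 4-fold. A count of 0 calls therefore leaves room for changes of the smaller sizes.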

Additional observations from a re-analysis of the deposited data

How the results depend on the processing

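No gene of the 31 was called in any comparison after TMM or DESeq2 size factors, with mitochondrial ribosomal RNA left out, with the compared groups alone, or without PBS replicates 1 and 2. The counts moved in comparisons with PBS, in the order siRNA, scrambled REVERSIR, TTR REVERSIR, siRNA with scrambled REVERSIR and siRNA with TTR REVERSIR. Library totals alone gave 17, 8, 13, 13 and 11 genes, beside 3844, 1580, 2883, 3557 and 4089 over all genes. The same scaling gave 1 for any difference among the 6 groups, beside 458 over all genes. No filter on low counts gave 2, 5, 1, 0 and 1 genes, beside 677, 424, 498, 564 and 585 over all genes. It gave 3 for any difference and 1 for any REVERSIR against none, beside 688 and 250 over all genes. DESeq2 gave 2, 1, 1, 0 and 3, beside 421, 188, 173, 201 and 242 over all genes. For any difference and any REVERSIR it gave 2 and 1, beside 240 and 20 over all genes. Leaving out 1 library gave 0 to 7, 0 to 6, 0 to 3, 0 to 4 and 0 to 4 genes, 0 to 1 for any difference and 0 to 3 for any REVERSIR. Each upper value is from leaving out PBS replicate 3, beside 1365, 749, 978, 1142 and 1151 over all genes against PBS. For any difference and any REVERSIR the counts over all genes were then 648 and 429. Without that library every one of those 7 results held a call. Leaving out scrambled REVERSIR replicate 1 gave 1 call, for the scrambled REVERSIR against PBS, beside 43 over all genes. Leaving out TTR REVERSIR replicate 2 gave 1 call, for the TTR REVERSIR against PBS, beside 375 over all genes. Leaving out any other library gave none. The cause was not tested.

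Library totals alone moved the median of all genes against PBS to between 0.290 and 0.331, and the signs given here include that shift. Log2 fold changes that turned in sign with library totals alone were, for the siRNA, Elovl5 0.093, Fads1 0.14 and Fads2 0.080. For the TTR REVERSIR they were Dhcr7 0.034, Elovl5 0.065 and Me1 0.12, and for the siRNA with the scrambled REVERSIR Fads1 0.13, Fads2 0.13, Me1 0.12 and Stard4 0.031. For the siRNA with the TTR REVERSIR they were Srebf2 0.090, Fasn 0.097, Fads1 0.13, Fads2 0.056 and Me1 0.13. Without PBS replicates 1 and 2, Sqle turned to −0.022 for the scrambled REVERSIR and Stard4 to 0.016 for the siRNA with the scrambled REVERSIR.

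With the replicate number as a block 0 genes were called in all 15 results. Libraries of the same number showed little sign of deviating together. Between them 6 of 45 correlations were over 0.1, beside 10 of 90 between libraries of different number, with medians of −0.013 and 0.0011. Of the 18 libraries 7 correlated best with their own number. All genes called for the siRNA against PBS ran from 1 to 3844 over the alternatives, beside 292. Depth limits Mvd and Mvk most, with 7 to 59 and 17 to 110 counts per library.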
